A study of Homo sapiens with 6 samples.

Results

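The clustered protocadherins are 3 neighbouring gene clusters on chromosome 5, named alpha, beta and gamma. They were taken here as every gene in the files whose symbol is that of a member of these clusters, which gave 54 of 60666 genes. There were 16 members in the alpha cluster, 16 in the beta cluster and 22 in the gamma cluster. The only member that is not annotated as protein coding is the pseudogene PCDHA14. The comparison asks how the expression of these genes differed when the DNA methyltransferase DNMT3B was missing.

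RNA-seq was performed on DNMT3B KO cells and on HCT116 cells, with 3 libraries of each. DNMT3B KO cells are a line derived from HCT116 by disruption of the DNMT3B gene, and HCT116 is an established human colorectal carcinoma line that is wild type for this gene. Neither line was treated, and the lines grew in the same medium. The knockout is represented by 1 derived line. Whether replicate libraries were made from separate cultures is not stated, and the p-values therefore reflect the spread among the libraries alone, which may be technical.

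Clustered protocadherins are cell surface proteins of the cadherin superfamily, and the extracellular cadherin repeats of most isoforms bind the same isoform on a neighbouring cell. In the alpha and gamma clusters every gene has its own large 5′ exon with its own promoter, which is spliced to constant exons that encode a common cytoplasmic domain, whereas beta genes consist of 1 exon. In mouse neurons, a single cell transcribes a small, varying set of these promoters, while the C-type genes at the 3′ ends of the alpha and gamma clusters are chosen in a more uniform way. Promoter choice is known to involve DNA methylation, the DNA-binding protein CTCF, the cohesin complex and, in mouse, Dnmt3b and Smchd1.

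All 3 clusters lie on the plus strand of hg38, the alpha members at chr5:140786136-141012347, the beta members at chr5:141051374-141249365 and the gamma members at chr5:141330514-141512977. The alpha constant exons have 59, 89 and 2721 bases and were shared by 15 members. The gamma constant exons have 59, 89 and 2029 bases and were shared by all 22 members. Because of them, 44.8 to 45.9% of the transcript bases of a gamma member lie in exons of other genes (48.4% in PCDHGB4, which also overlaps PCDHGA8), and reads there can only be divided between members by estimation. Beta members share 0 to 9.5% of their bases with other genes, but they resemble each other in sequence. The share of 50-base words that occur nowhere else among annotated transcripts had a median of 83.2% in beta members, 50.1% in gamma members and 42.8% in alpha members. Counts of near-identical members are therefore uncertain.

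Promoters of many members are known to carry a conserved element whose core is CGCT, and it is shown here for some of the members whose values are described below. It was not tested against expression. RefSeq promoters on GRCh38.p14, which run from 250 bases before to 50 bases after a start site, were found for 47 of the 54 members. No promoter was found for PCDHA3, PCDHA13, PCDHA14, PCDHB6, PCDHB11, PCDHGA12 and PCDHGC5. Other members described below have a promoter that is not shown, among them PCDHAC1, PCDHAC2, PCDHB8, PCDHB9, PCDHGB7 and PCDHGA9. Each line below gives 30 bases of the plus strand around the core, which is in capitals.
PCDHA1, chr5:140786089-140786118: ggccacatgatgtCGCTgtacaccacaaag
PCDHA10, chr5:140855844-140855873: agccaccggatgtCGCTgtcgtccacaaaa
PCDHA11, chr5:140868886-140868915: aggcgcaaggtgtCGCTctttacttggtgg
PCDHB7, chr5:141172569-141172598: aaacgcaaggtggCGCTgctggctaaaaag
PCDHB10, chr5:141192302-141192331: ggccacacggtggCGCTgcaggctaaagag
PCDHB13, chr5:141213868-141213897: ggacgcgtggtggCGCTgcaggataagaag
PCDHB14, chr5:141223266-141223295: agacacatggtggCGCTacaggataagacg
PCDHGA6, chr5:141373838-141373867: ggactctaagcgtCGCTgttgaccaacctg
PCDHGA10, chr5:141412934-141412963: ggactctgagcgcCGCTgttcacctactag

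The letters CGCT, searched on both strands, occurred in 12 of 13 alpha, 14 of 14 beta and 20 of 20 gamma members with a promoter, and in 70.0% of all 35116 RefSeq promoters of this length, so these 4 letters alone set the clusters little apart. PCDHA9 was the member without them. Longer words around the core, also searched on both strands, were much rarer elsewhere. ATGTCGCT occurred in 9 of 13 alpha members and in 0.23% of all promoters. It was missing from PCDHA9, PCDHA11, PCDHAC1 and PCDHAC2. GTGGCGCT occurred in 13 of 14 beta members and in 1.15% of all promoters, and GCCGCTGT in 11 of 20 gamma members and in 1.63% of all promoters. TATAAA, the core of the TATA box, occurred on either strand in 3 of 13 alpha, 1 of 14 beta and 2 of 20 gamma members, against 11.5% of all promoters. A match, or its lack, describes these letters in this window and is not evidence of binding. The words were chosen for being the most shared within each cluster.

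The libraries held 55436267 to 68274783 estimated counts each. DNMT3B itself was at 2.54, 2.87 and 2.83 CPM (counts-per-million, scaled by TMM) in DNMT3B KO libraries, against 38.5, 30.1 and 39.5 CPM in HCT116 libraries, as the labels require (log2 fold change -3.71, SE 0.15, adjusted p = 2.5e-06, edgeR quasi-likelihood test). Of 16959 genes that passed the filter on low counts, 28.1% were called at an adjusted p under 0.05, 12.9% higher and 15.1% lower in DNMT3B KO cells. Correlations between libraries of 1 line were 0.990 to 0.991 in DNMT3B KO cells and 0.975 to 0.987 in HCT116 cells, with the lowest between HCT116 replicates 2 and 3.

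Markers of the colorectal epithelium were present, with EPCAM at a mean of 285 CPM in DNMT3B KO cells and 302 CPM in HCT116 cells and CDX2 at 20.3 and 22.4 CPM, but CDX1, CDH17 and LGALS4 were at or near 0 in both lines. The list of 10 summed to 1780 to 1970 CPM in DNMT3B KO libraries, against 3320 to 4500 CPM in HCT116 libraries, and of 7 tested, 4 were lower (CDH1, KRT8, KRT18 and KRT20), 1 was higher (VIL1, log2 fold change 3.62, adjusted p = 0.0026, edgeR) and EPCAM and CDX2 did not pass. The 10 neuron markers, of interest because neurons express these clusters widely, summed to 183 to 201 CPM in DNMT3B KO libraries and 196 to 217 CPM in HCT116 libraries. Of the 5 tested, SNAP25 and TUBB3 were higher in DNMT3B KO cells and SYT1 was lower, at 6.18 ± 0.421 CPM in DNMT3B KO cells and 63.0 ± 10.5 CPM in HCT116 cells (SD, n = 3 each). The neuronal nuclear protein RBFOX3 and the neurofilament genes NEFL and NEFM were at or near 0 throughout. Markers of immune cells summed to 1.32 to 1.43 CPM in DNMT3B KO libraries and 0.181 to 0.345 CPM in HCT116 libraries, those of fibroblasts to 15.3 to 17.9 and 9.98 to 19.9 CPM, and those of endothelium to 1.48 to 1.94 and 0.615 to 1.52 CPM. The part of these differences in the results on the clusters was not tested.

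Most members were silent or nearly so in both lines. No count was found in any library for 6 members, PCDHA2, PCDHA5, PCDHA6, PCDHA9, PCDHB1 and PCDHB6, which allows a level of up to 0.0416 to 0.0595 CPM in a library (3 counts, counting error only). A further 16 members had 1 to 9 counts over all 6 libraries. A mean of at least 1 CPM in either line was reached by 5 members, PCDHAC1, PCDHAC2, PCDHB14, PCDHGA10 and PCDHGB7. In bulk RNA, fewer cells that express a gene and less RNA per cell cannot be told apart, so a level of 1 CPM may come from all cells or from few.

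**Figure D1:**
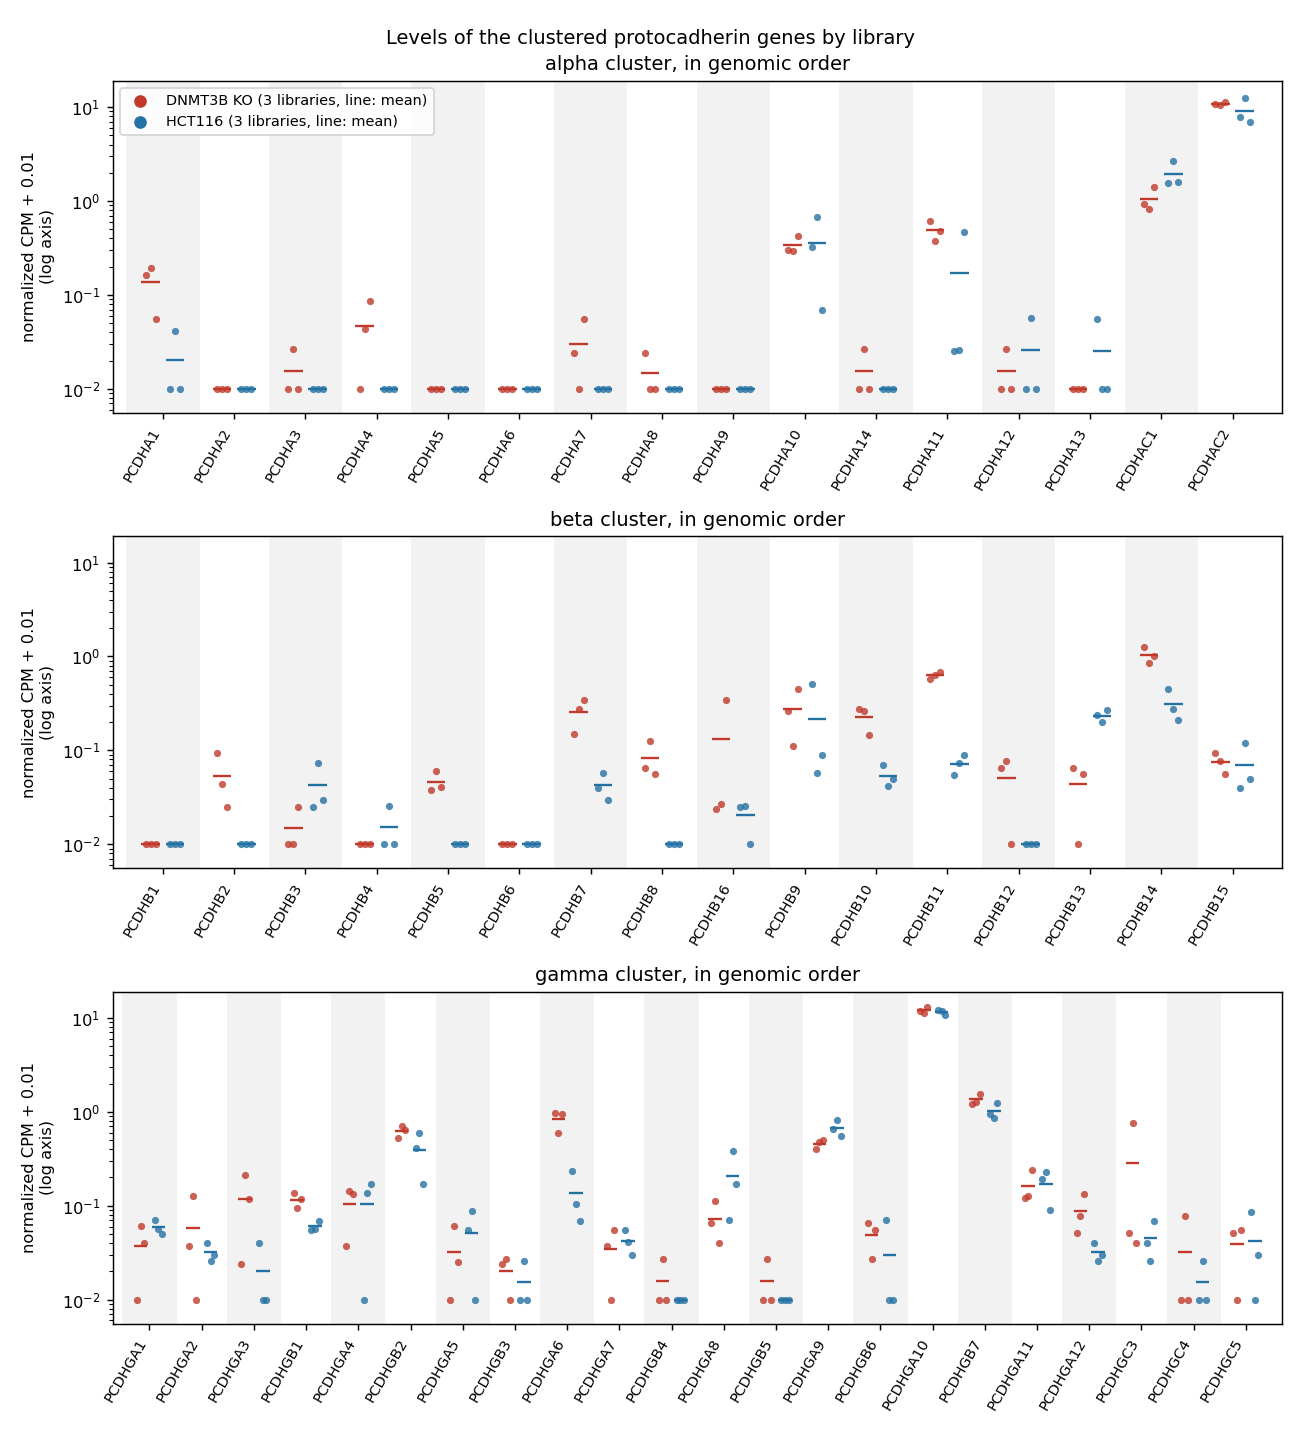
Levels of the 54 clustered protocadherin genes in genomic order (x axis), as TMM-normalized CPM plus 0.01 on a log axis (y axis), in 3 DNMT3B KO libraries (red, left) and 3 HCT116 libraries (blue, right), with points for libraries and lines for means. PCDHAC2 and PCDHGA10 stand near 10 CPM in both lines, whereas PCDHB11, PCDHB14 and PCDHGA6 are separated between the lines, with DNMT3B KO above.

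The filter kept 14 members, 4 in the alpha, 4 in the beta and 6 in the gamma cluster, and left 40 untested in the main comparison. Of the 14, 3 rose in DNMT3B KO cells (PCDHB11, PCDHB14 and PCDHGA6), 1 fell (PCDHB13) and 10 did not pass the test, against a background of 28.1% of all tested genes called. The 4 calls are therefore near the background share. PCDHB11 passed the filter only through its DNMT3B KO libraries and PCDHB13 only through its HCT116 libraries, so that each of them had to differ in order to be tested. PCDHGA6 reached 10 counts in 3 DNMT3B KO libraries but in only 1 HCT116 library, so it too depended on its DNMT3B KO libraries to pass.

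**Figure D2:**
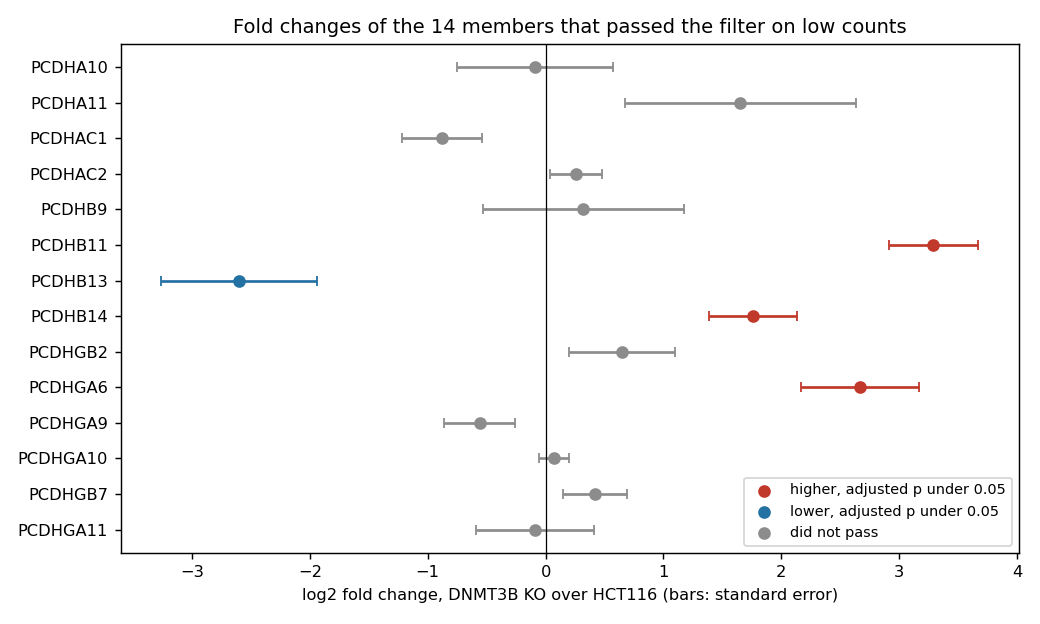
Log2 fold change of DNMT3B KO over HCT116 (x axis) with its standard error (bars) for the 14 tested members (y axis, in genomic order). Points are coloured by the call of the edgeR quasi-likelihood test, and standard errors were derived from its F statistic. PCDHB11, PCDHB14 and PCDHGA6 lie to the right at 3.29, 1.76 and 2.67, PCDHB13 lies to the left at -2.60, and the strongly expressed PCDHGA10 lies at 0.07.

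Of the 4 calls, PCDHB11, PCDHB13 and PCDHB14 are beta genes, and the filter favoured the calls of PCDHB11 and PCDHB13 as described. Beta genes encode protocadherins that lack the constant cytoplasmic domain of the other clusters. PCDHB11 (ENSG00000197479, chr5:141199610-141203779) was at 0.568, 0.621 and 0.670 CPM in DNMT3B KO libraries, against 0.0452, 0.0628 and 0.0793 CPM in HCT116 libraries. All DNMT3B KO libraries were thus above all HCT116 libraries, by a wide gap and with little spread within either line. The log2 fold change was 3.29 (SE 0.38, adjusted p = 0.00051), which is 9.80-fold, and the call held without any 1 library (largest adjusted p = 0.0054). These values stand on 41, 37 and 44 counts in DNMT3B KO libraries and 3, 4 and 4 counts in HCT116 libraries.

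PCDHB14 (ENSG00000120327, chr5:141223343-141227759), the beta gene with the highest level per length in both lines, was at 1.26, 0.839 and 0.990 CPM in DNMT3B KO libraries, against 0.437, 0.267 and 0.198 CPM in HCT116 libraries. The lines did not overlap, although HCT116 replicate 1 was the highest of its line. The gene rose by a log2 fold change of 1.76 (SE 0.37, adjusted p = 0.0099), and the call held without any 1 library, with a largest adjusted p of 0.048.

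PCDHB13 (ENSG00000187372, chr5:141213919-141218979) lies between these genes, just upstream of PCDHB14, and moved in the opposite direction. It was at 0.0555, 0 and 0.0457 CPM in DNMT3B KO libraries, against 0.226, 0.188 and 0.258 CPM in HCT116 libraries. The 3 HCT116 libraries were close together and all above the DNMT3B KO libraries, 1 of which had no count. The log2 fold change was -2.60 (SE 0.66, adjusted p = 0.021), on 4, 0 and 3 counts in DNMT3B KO libraries and 15, 12 and 13 counts in HCT116 libraries. The call was lost without DNMT3B KO replicate 1 (adjusted p = 0.052), DNMT3B KO replicate 3 (0.071) or HCT116 replicate 1 (0.067). The share of unique 50-base words was 75.8% in PCDHB13, 85.9% in PCDHB14 and 85.6% in PCDHB11.

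The remaining tested beta gene, PCDHB9, was at 0.250, 0.101 and 0.442 CPM in DNMT3B KO libraries, against 0.497, 0.0471 and 0.0793 CPM in HCT116 libraries. Its highest value came from HCT116 replicate 1, the lines overlapped, and it did not pass (log2 fold change 0.32, SE 0.85, adjusted p = 0.82).

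Several beta genes had too few counts for the filter but lay higher in all DNMT3B KO libraries. When every gene with a count was tested, 16.6% of 30062 genes were called, 7.53% higher and 9.06% lower, and the members called were 7 higher and 1 lower of 48 with a count. Besides the 4 genes above, these were PCDHB7, PCDHB8, PCDHB10 and PCDHA1. They are described with that fit and are low in both lines.

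PCDHB7 had 10, 16 and 22 counts in DNMT3B KO libraries, against 2, 3 and 1 counts in HCT116 libraries (log2 fold change 2.83, SE 0.69, adjusted p = 0.0072, edgeR without the filter). PCDHB10 had 19, 15 and 9 counts in DNMT3B KO libraries, against 4, 2 and 2 counts in HCT116 libraries (log2 fold change 2.25, SE 0.66, adjusted p = 0.024, edgeR without the filter). Both genes were also called by DESeq2, with adjusted p of 0.014 and 0.047. PCDHB8 had 4, 7 and 3 counts in DNMT3B KO libraries and 0 in every HCT116 library, a level at least 1.44-fold higher than 3 counts per library would give (adjusted p = 0.031, edgeR without the filter). DESeq2 gave no adjusted p for PCDHB8. Only 50.8% of the 50-base words of PCDHB8 are unique, the lowest share in the cluster. The 30 bases around its promoter core closely match those of PCDHB13, which moved the other way. Whether reads were divided differently between PCDHB8 and PCDHB13 in the lines was not tested.

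Over all members with a count, the libraries of the lines did not overlap in 14. Of these, 11 were higher in DNMT3B KO cells and 3 were lower, against a background of 16.2% of 30062 genes with a count that were higher and 14.8% that were lower. The beta cluster had 7 of the 11, PCDHB2, PCDHB5, PCDHB7, PCDHB8, PCDHB10, PCDHB11 and PCDHB14. The others were PCDHA1, PCDHGB1, PCDHGA6 and PCDHGA12. The 3 lower members were PCDHB13, PCDHAC1 and PCDHGA9. PCDHB2 had 6, 2 and 1 counts and PCDHB5 had 2, 3 and 2 counts in DNMT3B KO libraries, and neither had a count in HCT116 cells. PCDHB16 was high in a single library, with 1, 1 and 22 counts in DNMT3B KO cells and 1, 1 and 0 counts in HCT116 cells, and PCDHB15 had 6, 4 and 3 counts in DNMT3B KO libraries, against 2, 7 and 2 counts in HCT116 libraries.

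The levels were also summed over each cluster. The 16 beta genes summed to 2.86, 2.43 and 3.11 CPM in DNMT3B KO libraries, against 1.35, 0.848 and 0.734 CPM in HCT116 libraries. All DNMT3B KO libraries were above all HCT116 libraries, and the ratio of the means was 2.86. Most of the difference came from PCDHB11 and PCDHB14. Without them, the beta genes summed to 1.03, 0.973 and 1.45 CPM in DNMT3B KO libraries, against 0.873, 0.518 and 0.456 CPM in HCT116 libraries, with a ratio of 1.87. The alpha cluster summed to 12.7, 12.3 and 13.8 CPM in DNMT3B KO libraries, against 9.82, 15.9 and 9.09 CPM in HCT116 libraries, with a ratio of 1.12 and overlapping lines. The gamma cluster summed to 15.5, 16.2 and 17.6 CPM in DNMT3B KO libraries, against 15.0, 15.0 and 13.4 CPM in HCT116 libraries, with a ratio of 1.14 and no overlap. No test was made of these sums or of the shares of single members in them.

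**Figure D3:**
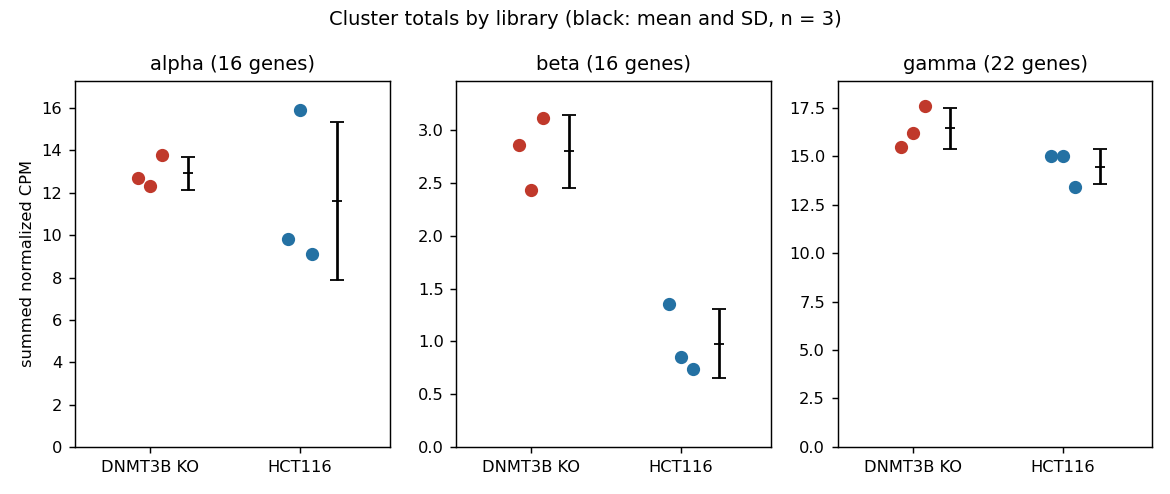
Summed TMM-normalized CPM (y axis) of the alpha, beta and gamma clusters in 3 DNMT3B KO libraries (red, left) and 3 HCT116 libraries (blue, right), with black marks for the mean and SD. The lines are far apart in the beta cluster, at a mean of 2.80 CPM in DNMT3B KO cells and 0.979 CPM in HCT116 cells, and overlap in the alpha cluster.

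PCDHB14 had the largest mean share of the beta cluster in both lines. It held 36.8 ± 6.49% of the beta counts in DNMT3B KO libraries and 30.2 ± 2.81% in HCT116 libraries (SD, n = 3 each). PCDHB11 held 22.3 ± 2.88% in DNMT3B KO libraries and 7.18 ± 3.74% in HCT116 libraries, and PCDHB13 held 1.14 ± 1.01% in DNMT3B KO libraries and 24.7 ± 9.48% in HCT116 libraries. PCDHB9 held 9.03 ± 5.05% in DNMT3B KO libraries and 17.7 ± 16.7% in HCT116 libraries, and in HCT116 replicate 1 it was the beta gene with the most counts, so the order of the genes differed between HCT116 libraries. The beta sums stand on 145 to 206 counts in DNMT3B KO libraries and 37 to 90 counts in HCT116 libraries.

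**Figure D4:**
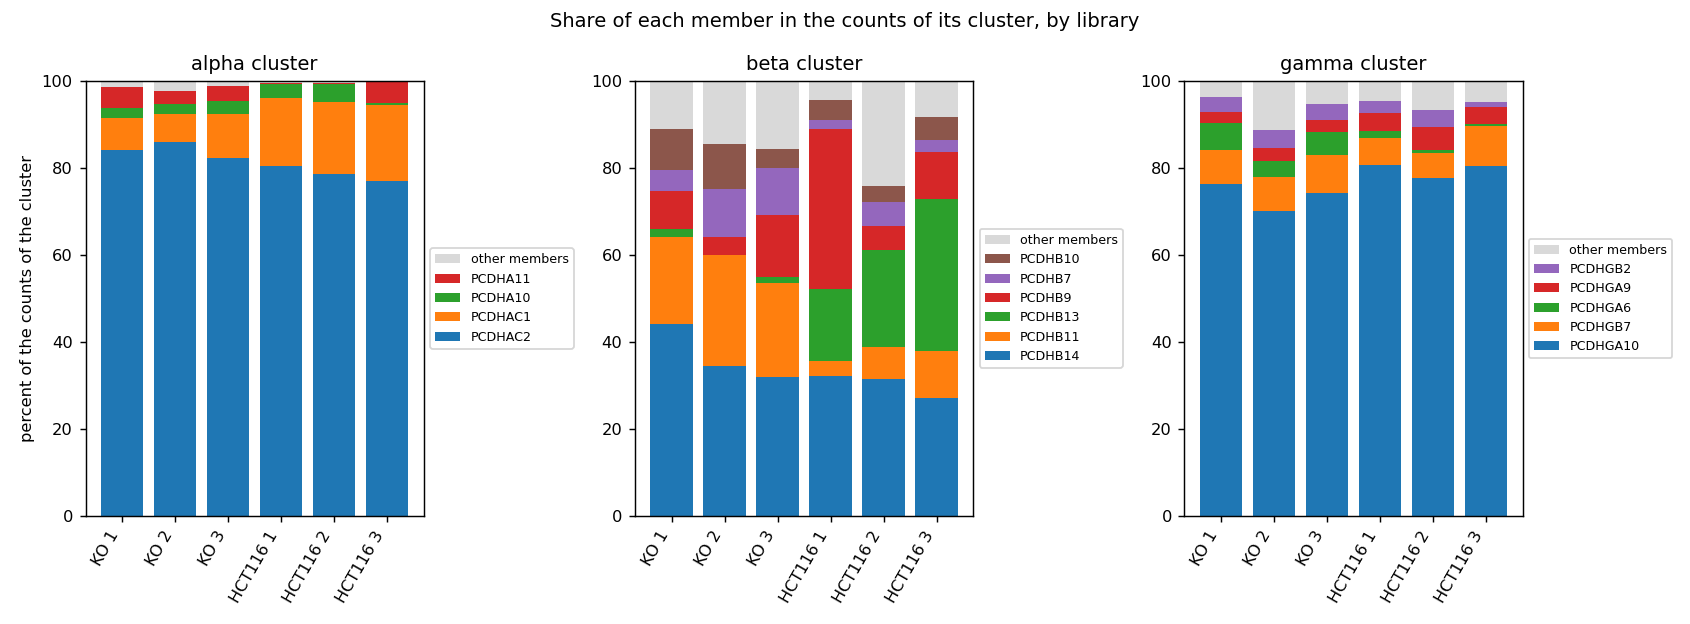
Percent of the counts of a cluster (y axis) held by its leading members (colours) in each of 3 DNMT3B KO and 3 HCT116 libraries (x axis). PCDHAC2 and PCDHGA10 take most of the alpha and gamma counts in every library, whereas in the beta cluster PCDHB11 averages 22.3% in DNMT3B KO cells and 7.18% in HCT116 cells and PCDHB13 averages 1.14% and 24.7%.

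In the gamma cluster, 1 gene took most of the counts. PCDHGA10 (ENSG00000253846, chr5:141412987-141512975), a gene of the A type, was at 11.8, 11.3 and 13.1 CPM in DNMT3B KO libraries, against 12.1, 11.7 and 10.8 CPM in HCT116 libraries. The lines overlapped, and it did not pass the test (log2 fold change 0.07, SE 0.13, adjusted p = 0.72). It held 73.6 ± 3.17% of the gamma counts in DNMT3B KO libraries and 79.6 ± 1.57% in HCT116 libraries (SD, n = 3 each). Per kb of transcript its level was 2.52 CPM in DNMT3B KO cells and 2.39 CPM in HCT116 cells, the highest of all 54 members in both lines. PCDHAC2 followed at 1.90 CPM per kb in DNMT3B KO cells and 1.59 CPM per kb in HCT116 cells. All other members were far lower per kb, with PCDHGB7 next at 0.283 CPM in DNMT3B KO cells and PCDHAC1 next at 0.327 CPM in HCT116 cells.

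PCDHGA6 (ENSG00000253731, chr5:141373891-141512975), also of the A type, was the gamma gene that rose. It was at 0.971, 0.587 and 0.945 CPM in DNMT3B KO libraries, against 0.226, 0.0942 and 0.0595 CPM in HCT116 libraries. Every DNMT3B KO library was above every HCT116 library, with HCT116 replicate 1 the highest of its line. The log2 fold change was 2.67 (SE 0.50, adjusted p = 0.0057), or 6.36-fold, and the call held without any 1 library (largest adjusted p = 0.028). The filter favoured this call, since the gene depended on its DNMT3B KO libraries to pass. Of its 50-base words, 48.9% are unique, since its constant exons are shared.

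The next gene after PCDHGA10, PCDHGB7 (ENSG00000254122), was at 1.21, 1.27 and 1.55 CPM in DNMT3B KO libraries, against 0.948, 0.848 and 1.23 CPM in HCT116 libraries. The lines overlapped slightly, and the test was not passed (log2 fold change 0.42, SE 0.27, adjusted p = 0.29). PCDHGA9 was at 0.388, 0.470 and 0.488 CPM in DNMT3B KO libraries, against 0.647, 0.801 and 0.536 CPM in HCT116 libraries. It lay lower in all DNMT3B KO libraries but did not pass (log2 fold change -0.56, SE 0.30, adjusted p = 0.21). PCDHGB2 and PCDHGA11 did not pass either, with log2 fold changes of 0.65 (SE 0.45) and -0.09 (SE 0.50), and that of PCDHGA11 changed sign with the scaling.

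The other 16 gamma genes were below the filter. Without PCDHGA10, the gamma genes summed to 3.66, 4.83 and 4.54 CPM in DNMT3B KO libraries, against 2.92, 3.33 and 2.62 CPM in HCT116 libraries, with a ratio of 1.47 and no overlap. Part of that sum came from single libraries. PCDHGC3, a C-type gene, had 3, 45 and 2 counts in DNMT3B KO libraries and 2, 1 and 3 counts in HCT116 libraries, so that DNMT3B KO replicate 2 alone was high. The other C-type genes, PCDHGC4 and PCDHGC5, had at most 5 counts in any library.

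The alpha cluster was carried by its C-type genes. PCDHAC2 (ENSG00000243232, chr5:140966470-141012347) was at 10.7, 10.6 and 11.4 CPM in DNMT3B KO libraries, against 7.90, 12.5 and 6.98 CPM in HCT116 libraries. The highest value was that of HCT116 replicate 2, the lines overlapped, and the gene did not pass (log2 fold change 0.26, SE 0.22, adjusted p = 0.43). Without HCT116 replicate 2 it was called higher, with a log2 fold change of 0.54 and an adjusted p of 0.017. It held 84.2 ± 1.86% of the alpha counts in DNMT3B KO libraries and 78.6 ± 1.83% in HCT116 libraries (SD, n = 3 each).

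PCDHAC1 (ENSG00000248383, chr5:140926299-141012347) was at 0.929, 0.805 and 1.40 CPM in DNMT3B KO libraries, against 1.54, 2.65 and 1.59 CPM in HCT116 libraries. All DNMT3B KO libraries were lower, but the test was not passed (log2 fold change -0.88, SE 0.34, adjusted p = 0.088). Its share of the alpha counts was 7.99 ± 1.89% in DNMT3B KO libraries and 16.6 ± 0.916% in HCT116 libraries (SD, n = 3 each). PCDHAC1 and PCDHAC2 thus had log2 fold changes of opposite sign, although the difference between these changes was not tested.

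PCDHA10 and PCDHA11, which lie close together, differed between the HCT116 libraries. PCDHA10 was at 0.291, 0.285 and 0.411 CPM in DNMT3B KO libraries, against 0.316, 0.659 and 0.0595 CPM in HCT116 libraries. PCDHA11 was at 0.596, 0.369 and 0.472 CPM in DNMT3B KO libraries, against 0.0151, 0.0157 and 0.456 CPM in HCT116 libraries. In HCT116 replicate 3, PCDHA10 was low and PCDHA11 high, and in HCT116 replicates 1 and 2 it was the other way round, whereas both genes were present in every DNMT3B KO library. Their sum was 0.887, 0.654 and 0.884 CPM in DNMT3B KO libraries, against 0.331, 0.675 and 0.516 CPM in HCT116 libraries, and overlapped. Neither passed the test, with log2 fold changes of -0.09 (SE 0.66, adjusted p = 0.94) for PCDHA10 and 1.65 (SE 0.98, adjusted p = 0.25) for PCDHA11. Without HCT116 replicate 3, PCDHA11 had a log2 fold change of 4.81 and an adjusted p of 0.0007. Whether the reads of these genes were divided differently in that library was not tested.

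PCDHA1, the 5′-most gene of the cluster, had 11, 11 and 3 counts in DNMT3B KO libraries, against 0, 2 and 0 counts in HCT116 libraries. The ratio of the lines was 11.4, with a 95% interval from 2.85 to 99.6 that covers counting error only. It was called without the filter (adjusted p = 0.040, edgeR) but not by DESeq2 (adjusted p = 0.092). PCDHA4 and PCDHA7 had 7 and 4 counts in total, all in DNMT3B KO cells, and PCDHA13 had 3 counts, all in 1 HCT116 library. Over all clusters, 11 of 48 members with a count had counts only in DNMT3B KO cells, 5 of them a single count in total, and 2 had counts only in HCT116 cells. Over all 30062 genes with a count, 10.7% had counts only in DNMT3B KO cells and 7.95% only in HCT116 cells.

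The members were compared with their promoters for a property that their choice did not use. The number of CpG sites in the 300 bases had a median of 7 in alpha, 7.5 in beta and 7 in gamma members, against 14 over all promoters. PCDHAC1 and PCDHAC2 had 27 and 15 CpG sites, the highest counts in the alpha cluster. PCDHGA10, which had the highest level, had only 5, as did PCDHGA6. PCDHB14 had 8 and PCDHB13, which moved the other way, had 10. DNA methylation of these promoters was not analysed here.

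Genes known to act on the clusters were also examined. All 28 regulators on the list were tested, and 4 rose, 3 fell and 21 did not pass, with a median log2 fold change of 0.16, against 28.1% called and a median of 0.00 over all tested genes. The list contains DNMT3B itself among the genes that fell. SMC3, a core cohesin subunit, rose to 204 ± 7.25 CPM in DNMT3B KO cells, against 122 ± 21.2 CPM in HCT116 cells (SD, n = 3 each, log2 fold change 0.74, SE 0.13, adjusted p = 0.0045, edgeR). MAU2, part of the cohesin loader, also rose (log2 fold change 0.41, adjusted p = 0.021), and CTCF did not pass, at 109 ± 8.24 CPM in DNMT3B KO cells and 96.3 ± 21.3 CPM in HCT116 cells (adjusted p = 0.45, edgeR).

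SMCHD1, a repressor known to act on the clusters in mouse, fell to 99.8 ± 7.44 CPM in DNMT3B KO cells, against 131 ± 3.86 CPM in HCT116 cells (SD, n = 3 each, log2 fold change -0.39, SE 0.09, adjusted p = 0.013, edgeR). REST, a repressor of neuronal genes, rose (log2 fold change 0.28, SE 0.08, adjusted p = 0.030). Leaving out DNMT3B KO replicate 1, DNMT3B KO replicate 2 or HCT116 replicate 1 ended the calls of SMCHD1 (adjusted p = 0.051, 0.065 and 0.060) and of MAU2 (0.090, 0.090 and 0.062). The call of REST was lost without any 1 of DNMT3B KO replicates 1, 2 and 3 or HCT116 replicate 1 (0.11, 0.065, 0.13 and 0.11).

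Other protocadherin genes and related FAT, DCHS, CELSR and CDHR genes outside the clusters made up a list of 26, of which 15 had too few counts to be tested. Of the 11 tested, 0 rose, 6 fell (PCDH1, PCDH7, FAT1, FAT2, FAT4 and CDHR3) and 5 did not pass, against 12.9% called higher and 15.1% lower over all tested genes. The median log2 fold change of the 11 was -0.61. At an unadjusted p under 0.05, 2 of these were higher, PCDH19 and CELSR2. DESeq2 called 2 genes of the list higher, CELSR2 and CDHR2, of which CDHR2 was not among the 11. PCDH1, an epithelial adhesion protein, fell to 12.2 ± 2.97 CPM in DNMT3B KO cells, against 47.5 ± 4.95 CPM in HCT116 cells (SD, n = 3 each, log2 fold change -1.96, SE 0.18, adjusted p = 0.00015, edgeR). PCDH7 fell by 2.29 on the log2 scale (adjusted p = 0.00019), and the giant cadherins FAT1 and FAT4 fell too, with log2 fold changes of -1.08 and -2.10 (adjusted p = 0.00076 and 0.0038). 

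The genes that flank or lie between the clusters mostly did not pass. Of 23, 14 were tested, with 1 higher, 1 lower and 12 not passing, against 28.1% of all tested genes called. The median log2 fold change of the 14 was -0.06. HARS2, a mitochondrial histidyl-tRNA synthetase gene, rose to 87.2 ± 3.27 CPM in DNMT3B KO cells, against 64.8 ± 5.45 CPM in HCT116 cells (SD, n = 3 each, log2 fold change 0.43, SE 0.09, adjusted p = 0.0098, edgeR). ARAP3, a GTPase-activating protein gene, fell by 0.66 (SE 0.15, adjusted p = 0.014). The call of HARS2 was lost without DNMT3B KO replicate 3 or HCT116 replicate 1 (adjusted p = 0.058 and 0.051), and that of ARAP3 without DNMT3B KO replicate 2, DNMT3B KO replicate 3 or HCT116 replicate 1 (0.054, 0.061 and 0.055).

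Of 25 genes whose products bind, signal from or process clustered protocadherins, 24 were tested, with 3 higher, 3 lower and 18 not passing. Over all tested genes, 28.1% were called. The median log2 fold change of the 24 was -0.11. MARCKS, an actin-regulating substrate of protein kinase C, fell to 17.9 ± 0.498 CPM in DNMT3B KO cells, against 51.7 ± 1.98 CPM in HCT116 cells (SD, n = 3 each, log2 fold change -1.53, SE 0.08, adjusted p = 1.2e-05, edgeR). CYFIP2, a subunit of the WAVE complex that binds the cytoplasmic domains, fell by 0.88 (adjusted p = 0.00019), and the kinase gene PTK2B fell by 1.13 (adjusted p = 0.011), a call lost without DNMT3B KO replicate 2 or 3 (0.053 and 0.051).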

How the data were processed

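RNA was sequenced from 3 DNMT3B KO and 3 HCT116 libraries made with a stranded, poly(A)-selected kit. The deposited values are estimated counts per gene, which the authors obtained by STAR alignment of paired-end reads to hg38 and Salmon quantification over Ensembl transcripts, with scaling for gene length. The study's alignment statistics count fragments after removal of duplicates and multi-mapped reads. Whether that removal applied to the deposited counts, and how reads that match several members were divided, is not given in the sources used here.

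These values were rounded to integers and filtered by filterByExpr (minimum count 10). Libraries were scaled by TMM, and the effect of genotype was tested in edgeR 4.0.16 (R 4.3.3) by its quasi-likelihood method, with Benjamini-Hochberg adjustment over all tested genes and a threshold of 0.05. The fit was tested on simulated data. Symbols were those deposited with the counts. Positions and exons came from GENCODE release 44, on the same build, which matched all 54 members and 60437 of 60666 gene IDs. Promoters came from RefSeq. CPM values were scaled by the TMM library sizes, and levels per kb were divided by transcript length.

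Every member was accounted for. Those described per library were called, reached a mean of 1 CPM in either line, or had 0 counts in one line and at least 10 in the other. Some further members were named after their values were seen, PCDHA1, PCDHA10, PCDHA11, PCDHB7, PCDHB10 and PCDHGC3 among them. Of other lists, up to 4 called genes of at least 1 CPM with the smallest adjusted p were named, and DNMT3B, CTCF, SMCHD1 and REST were named regardless. A gene that this rule names is not reported here. Members and lists were chosen with earlier results of these data known. Alternatives changed the scaling, the test (DESeq2 1.42.0), the filter, the depth, the threshold, the replicate block and the libraries included.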

Additional observations from a re-analysis of the deposited data

How the results depend on the processing

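The numbers of calls among members changed with the filter and with the libraries included. Against 3 higher members in the main comparison, DESeq2 gave 5, no filter 7 and a filter of at least 10 counts in total 6, and leaving out 1 library gave 3 to 7, with 7 reached without HCT116 replicate 2. For the beta cluster these were 4, 5 and 5, and 2 to 4 without 1 library, against 2. In the alpha cluster 1 was higher without the filter and 0 to 2 without 1 library, against 0. The 1 lower member, PCDHB13, was lost at 50000000 counts per library and at an adjusted p under 0.01 (0 in both, in the beta cluster too), and leaving out 1 library gave 0 to 1.

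Over all tested genes, higher calls numbered 2196 in the main comparison and 2511 with DESeq2. No filter gave 2263, a filter of at least 10 counts in total 2201, and leaving out HCT116 replicate 2 gave 2868. Total counts only gave 3349 higher calls and moved the median log2 fold change to 0.13. At an adjusted p under 0.01, higher calls numbered 1077 and lower calls 1571. Without 1 library they were 1283 to 2868 higher and 1758 to 3143 lower. With total counts only, regulators, other protocadherins, genes beside the clusters and partners had 10, 1, 3 and 5 higher, and genes beside the clusters 0 lower. At an adjusted p under 0.01, regulators had 1 higher and 1 lower, partners 1 higher and genes beside the clusters 0 lower. Other protocadherins had 2 higher with DESeq2, 2 without the filter and 1 with at least 10 counts. Without 1 library, regulators had 1 to 6 higher and 1 to 3 lower, other protocadherins 0 to 4 higher, genes beside the clusters 0 to 2 higher and 0 to 2 lower, and partners 1 to 4 higher and 2 to 4 lower.

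Samples of the 2 lines share only a replicate number. The correlations of same-numbered libraries' deviations were 0.064, -0.01 and 0.122, so the numbers were not taken to pair them. With the replicate block, 2 other protocadherins were higher, REST was no longer called, and the log2 fold change of PCDHA10 was 0.19.

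The log2 fold change of PCDHA10 was 0.02 with total counts only and -0.56 to 0.74 without 1 library. That of PCDHGA11 was 0.02 with total counts only and -0.50 to 0.18 without 1 library, and that of PCDHB9 was -0.26 to 2.06 without 1 library. Of 418 values for 30 named genes, 376 kept their direction and side of the threshold. The cause of these shifts was not tested. Members with few counts limit what can be detected at this depth.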
